A study of Mus musculus with 14 samples.

Results

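The Iroquois homeobox genes Irx1 to Irx6 were followed in mouse Atoh1-lineage cells of the developing hindbrain and the early postnatal pontine nuclei (PN). The members were the 6 genes with these symbols among the 31054 features of the deposited matrices, and all 6 were found, each under 1 identifier. Single-cell transcriptomes came from 14 libraries of C57BL/6J mice, made with 10x Genomics 3′ chemistry from TdTom-positive cells sorted after dissociation. Control animals were Atoh1 Cre/+; Rosa lsl-tdTomato/+ and Atoh1S193A/- animals were Atoh1 Cre/S193A; Rosa lsl-tdTomato/+, so that Cre had replaced the coding region of 1 Atoh1 copy in every animal, controls included, and the mutants carried the phospho-mutant S193A copy over that null copy. At E14.5 and at E18.5 there were 3 control and 3 Atoh1S193A/- whole hindbrains, 1 embryo per library. Each mutant had a littermate control, taken to be the control with the same replicate number. At P5 there were 2 control libraries of microdissected PN, each from pooled pups, and no mutant.

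Iroquois proteins are transcription factors of the TALE homeodomain class, which also holds the Meis, Pbx and Tgif factors. In mammals the genes lie in a pair of clusters, IrxA with Irx1, Irx2 and Irx4, and IrxB with Irx3, Irx5 and Irx6, and they are known for setting regional identity in the neural tube, heart, limb and retina. In the embryonic brain Irx2 acts in the territory that forms the cerebellum, Irx3 helps to set neuronal identities along the dorsoventral axis of the neural tube, Irx4 is best known from the ventricles of the heart, and Irx5 and Irx6 are known from the retina. The Atoh1 lineage arises at the rhombic lip, a dorsal strip of the hindbrain that gives rise to PN neurons, cerebellar granule cells, cerebellar nuclei neurons, unipolar brush cells and other hindbrain neurons.

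On chromosome 13 of GRCm38 (GENCODE annotation), Irx1 lies at chr13:71957921-71963723 on the minus strand, Irx2 at chr13:72628820-72634198 on the plus strand and Irx4 at chr13:73260479-73269608 on the plus strand, and the starts of neighbouring members are 670.9 and 631.7 kb apart. On chromosome 8, Irx3 lies at chr8:91798525-91802067 on the minus strand, Irx5 at chr8:92357625-92376286 and Irx6 at chr8:92674288-92680956, both on the plus strand. Irx3 overlaps Irx3os, an antisense RNA at chr8:91800415-91807539 on the plus strand, and Fto, whose introns hold regulatory elements of Irx3, lies at lower coordinates, chr8:91313525-91668439. How the counting treated strand was not given in the sources used here, so reads from the overlap of Irx3 and Irx3os may not be separable.

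The promoters of Irx2 and Irx3 are shown because these genes moved in opposite directions with age in PN-like cells. Each window holds 250 bases before and 50 bases after the start of the gene, by RefSeq on GRCm38.p6, and capitals mark a match to CANNTG, the E-box core to which proneural factors such as Atoh1 bind.
Irx2, chr13:72628570-72628869, plus strand: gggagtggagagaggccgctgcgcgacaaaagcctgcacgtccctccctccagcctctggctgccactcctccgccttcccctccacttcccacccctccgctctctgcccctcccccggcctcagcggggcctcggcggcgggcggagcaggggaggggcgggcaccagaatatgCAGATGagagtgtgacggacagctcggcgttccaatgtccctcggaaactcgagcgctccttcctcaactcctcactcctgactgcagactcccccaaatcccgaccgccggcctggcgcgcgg
Irx3, chr8:91801605-91801904, minus strand: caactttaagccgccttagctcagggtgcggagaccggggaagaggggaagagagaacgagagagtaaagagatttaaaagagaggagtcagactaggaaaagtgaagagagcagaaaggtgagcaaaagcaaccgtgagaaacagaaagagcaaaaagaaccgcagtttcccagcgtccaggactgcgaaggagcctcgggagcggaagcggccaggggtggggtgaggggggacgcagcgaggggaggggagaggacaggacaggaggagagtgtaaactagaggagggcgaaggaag
The Irx2 window held 1 CANNTG match on both strands together, of the form CAGATG, and the Irx3 window held none. Among 32851 promoter windows of this length, 72.3% held CANNTG and 17.2% held CAGATG on either strand, and every CAGATG is also a CANNTG. GC content was 69% in the Irx2 window and 56% in the Irx3 window, beside a median of 52.7% over all windows. The RefSeq start of Irx2 is that of the GENCODE gene, whereas the RefSeq start of Irx3 lies inside the GENCODE gene, so that the Irx3 window falls wholly within the GENCODE span given above. A match describes letters only, and binding was not measured in these libraries.

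After filtering, 80256 of 150188 barcodes were kept, 3248 to 8726 per library with a median of 5308, and the kept cells of a library held between 59993081 and 185029057 unique molecular identifiers (UMIs). Levels are given in CPM, a UMI count scaled to the same total in every sum, in the sum over the kept cells of a library or of a class of cells within it, and in such sums fewer expressing cells and less RNA per cell cannot be told apart. Irx2 contributed 7130 UMIs and Irx6 76 UMIs to the sum of E14.5 control replicate 1, so the counting error was small for Irx2 and large for Irx6. The replicate 2 pair at E14.5 stood apart from the other E14.5 libraries: PN-like cells were 15.3% (control) and 14.46% (mutant) of its cells against 23.1% to 27.8%, and cerebellar nuclei-like cells were 8.82% and 10.2% against 2.68% to 5.65%. Libraries shared 13 to 67 cell barcodes per pair, at most 0.624% of the smaller library. Atoh1 itself could not check the genotype labels, since a 3′ tag does not show the S193A substitution.

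Irx1 and Irx2 were the members with the highest levels at every age, whereas Irx3, Irx4 and Irx6 were at most 2.43 CPM in any later control in the sums over all sorted cells. Irx2 was measured at 118.8, 114.9 and 107.9 CPM in the E14.5 controls, at 70.9, 81.7 and 116.1 CPM in the E18.5 controls and at 361.5 and 323.0 CPM in the P5 PN. The highest E18.5 value lay within the E14.5 range, and both P5 libraries lay above every embryonic library. Irx1 was at 100.4, 86.0 and 88.3 CPM at E14.5, at 58.1, 55.9 and 61.5 CPM at E18.5 and at 129.4 and 133.2 CPM at P5. For Irx1 the 3 ages did not overlap. Stage differences that involve P5 were not tested, since the P5 libraries were dissected from the PN alone.

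The IrxB genes were lower at the later ages. Irx3 gave 39.2, 50.7 and 35.5 CPM in E14.5 controls, 1.61, 1.95 and 2.43 CPM in E18.5 controls and 1.85 and 1.38 CPM at P5. Irx5 gave 64.7, 77.6 and 57.3 CPM at E14.5, 12.7, 13.7 and 13.7 CPM at E18.5 and 8.16 and 9.77 CPM at P5. For each of the pair the E14.5 controls lay far above every later control library. Irx6 was near the detection limit, at 1.27, 0.444 and 0.165 CPM at E14.5 and at most 0.0546 CPM in an E18.5 control, where it rested on 1 to 5 UMIs per library. Irx4 of the IrxA cluster was at 3.77, 10.1 and 5.30 CPM at E14.5 against 0.308, 0.232 and 0.305 CPM at E18.5, where it rested on 17 to 31 UMIs per library.

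**Figure D1:**
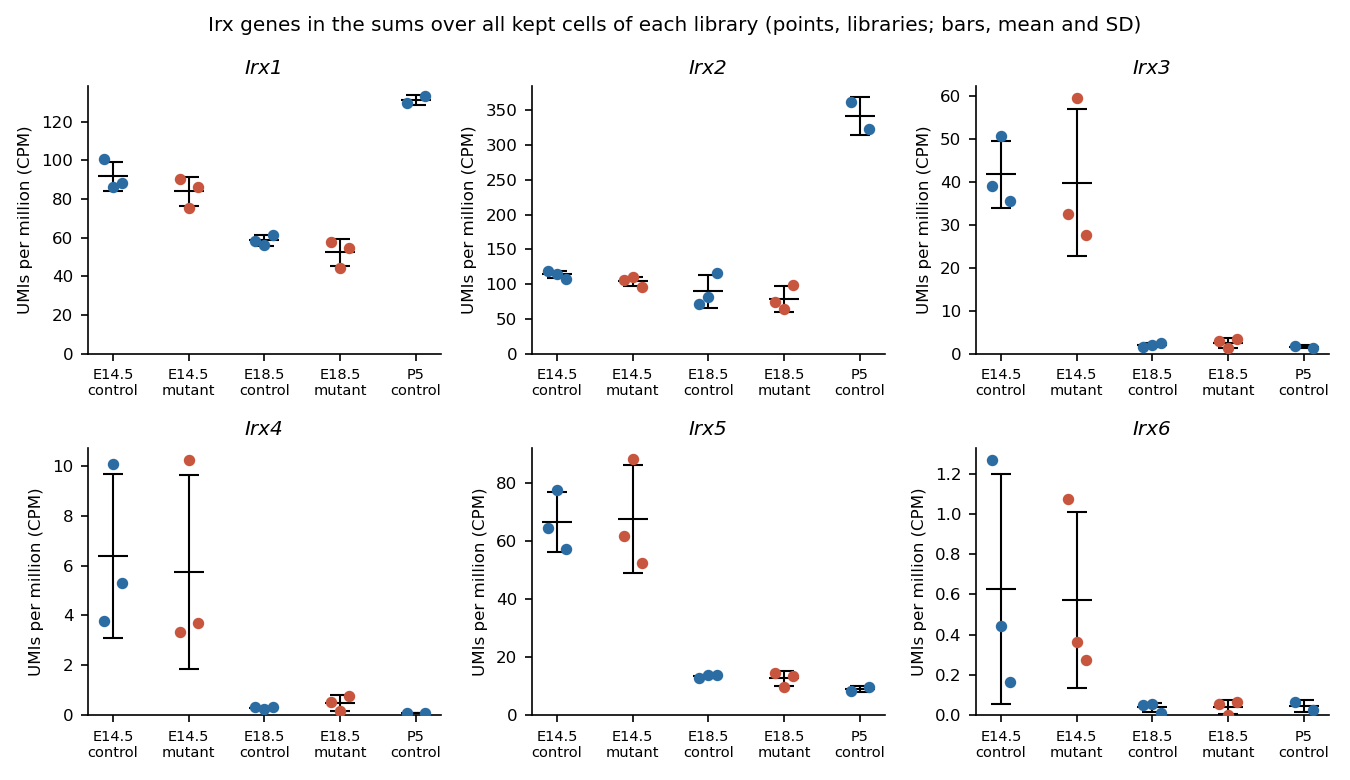
Level of each Irx gene (y axis, CPM) in the sum over all kept cells of each library, by age and genotype (x axis), with points for libraries and bars for the mean and SD. Irx2 reached 361.5 and 323.0 CPM at P5, while Irx3 fell from 35.5 to 50.7 CPM in E14.5 controls to at most 2.43 CPM in E18.5 controls.

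To ask how the family changed with age, E18.5 controls were compared with E14.5 controls over all sorted cells, with edgeR's quasi-likelihood test and Benjamini-Hochberg adjustment over 17254 genes. A gene was called at an adjusted p under 0.05 with an absolute log2 change over 0.25, which 45.4% of all genes met and 22.8% met in the direction lower at E18.5. Irx1, Irx3, Irx4 and Irx5 fell. Irx3 fell by 4.47 on the log2 scale (SE 0.20, adjusted p = 4.26e-05) and Irx4 by 4.58 (log2 change -4.58, SE 0.42, adjusted p = 0.000277). Irx6, with 76, 52 and 19 UMIs in E14.5 and 5, 4 and 1 in E18.5 controls, passed the filter of 10 UMIs in 3 libraries only through E14.5, so no test of it is given. Irx5 fell by 2.39 (SE 0.13, adjusted p = 6.13e-05) and Irx1 by a smaller 0.72 (log2 change -0.72, SE 0.08, adjusted p = 0.000479). Irx2 was not called, with a log2 change of -0.43 (SE 0.16, adjusted p = 0.0611). Leaving out E18.5 control replicate 3, whose Irx2 level was the highest of that group and whose PN-like share was 17.0% against 7.37% and 9.75%, gave -0.64 for Irx2 with an adjusted p of 0.00385. With DESeq2, without the filter on low counts and with a mitochondrial limit of 10%, Irx2 was also called, at -0.43, -0.41 and -0.59. Cell Ranger version was partly confounded with age, since 2 of 3 E14.5 controls carried a 3.1.0 header and all E18.5 libraries 5.0.1. Of the E14.5 controls only replicate 3 carried the 5.0.1 header. With that library alone against the 3 E18.5 controls, Irx3 gave -4.28, Irx4 -4.35, Irx5 -2.23 and Irx1 -0.72, in a fit that assumes the lone library to vary like the others. All mutants of both ages carried 5.0.1, and the same fit in the 3 E14.5 and 3 E18.5 mutants, added after the data were seen, called 30.4% of 17551 genes. There Irx3 went from 32.5, 59.5 and 27.6 CPM to 2.97, 1.25 and 3.33 CPM (log2 change -4.00, SE 0.42, adjusted p = 0.00140), and Irx5 from 61.9, 88.4 and 52.5 CPM to 14.6, 9.82 and 13.6 CPM (-2.43, SE 0.22, adjusted p = 0.000820). Irx1 was called there too, at -0.71, and Irx2 was not (-0.42, adjusted p = 0.0602). Irx4, with 65, 9 and 46 UMIs in E18.5 mutants, and Irx6, with 7, 0 and 4, passed the filter only through E14.5 there, and no test of them is given.

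Other regional genes were tested in the same fit. Of 12 Hox genes of paralog groups 2 to 5, which mark the hindbrain caudal to its first segment, all 12 fell, with a median log2 change of -3.04 beside 0.00 over all genes, among them Hoxc5 (-4.99) and Hoxb4 (-3.83). Of 13 isthmic and rostral hindbrain genes, 8 fell and 5 rose (median -2.59). Wnt1, which acts at or beside the organizer between midbrain and hindbrain, gave -4.36. Of 12 other TALE genes, 6 fell and 1 rose (median -0.41), and Meis2 fell by 3.69, Pbx3 by 1.56 and Meis3 by 1.18 on the log2 scale. Dorsoventral patterning genes fell in 9 and rose in 1 of 14 tested (median -2.07), with Msx2 at -4.38. Of the neighbours of the Irx loci, Rpgrip1l rose by 0.36. Irx3os passed the filter only through E14.5, so its test is not given. In the E18.5 libraries of both genotypes, the same filter was passed by 11 of 12 Hox genes, 12 of 13 isthmic and rostral genes and 2 of 3 neighbours. The counts and medians above thus include genes that passed only through E14.5, and falls of such genes are not read as tests. Since this count included the mutants, it does not show which listed genes passed through the E18.5 controls of the stage fit. For the listed genes named here this was not checked, and their falls are given as sizes only. The mix of cells also moved with age: granule lineage cells were 1.92% to 5.85% of E14.5 control cells and 15.3% to 17.7% of E18.5 control cells, and its part in these values was not tested.

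Within E14.5 controls, the members split by class of cell. PN-like clusters had at least 4 of 6 markers (Hoxb2 to Hoxb5, Pax6 and Barhl1) above the mean of clusters, and a set minimum of Pax6. At E14.5 Lhx2 and Reln could reach at most 0.4 of their highest cluster level. At E18.5 and P5 that limit was on En2 and Eomes instead. PN-like cells were led by the IrxA pair. In them Irx2 was at 209.9, 192.2 and 206.9 CPM and Irx1 at 190.8, 173.4 and 168.1 CPM, while Irx5 was at 64.7, 57.5 and 56.0 CPM and Irx3 at 27.7, 31.8 and 25.2 CPM. Irx4 averaged 0.388 CPM there. Cerebellar nuclei-like cells (Tbr1, Meis2, Lhx2, Lhx9, Slc17a6, Olig2) had the reverse order, with Irx5 at 128.4, 139.0 and 140.5 CPM and Irx3 at 112.4, 114.8 and 126.0 CPM, above Irx2 at 63.1, 59.2 and 35.2 CPM and Irx1 at 45.9, 31.7 and 23.0 CPM. Irx1 and Irx2 did not overlap with Irx3 and Irx5 between libraries in either class. The cerebellar nuclei-like class was cluster 4, led by Ppp1r17, Rflna and Th, and cluster 21, led by Olig2, Zmat4 and Esrrg. Cluster 13, with Tbr1 among its leading genes, was left unnamed, so the reverse order does not cover it. These levels describe clusters built from the same cells and were not tested.

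Other named classes had orders of their own. The Lhx2 and Lhx9 caudal neurons, marked by Lhx2, Lhx9, Foxb1, Pou4f1 and Barhl2, had Irx1 at 10.1 CPM ± 3.33, Irx2 at 10.8 ± 5.65, Irx3 at 6.45 ± 2.21 and Irx5 at 10.1 ± 3.16 (mean ± SD, n = 3), the lowest of the named neuronal classes for Irx1, Irx2 and Irx5. Granule lineage cells had Irx1 at 82.2 ± 1.97 and Irx2 at 83.4 ± 8.41 CPM but Irx3 at 1.73 ± 1.77 and Irx5 at 15.2 ± 2.11 CPM. Inhibitory neuron-like cells held all 4 at similar levels, Irx1 at 67.8 ± 4.45, Irx2 at 76.8 ± 3.89, Irx3 at 64.4 ± 13.7 and Irx5 at 90.9 ± 21.8 CPM. Irx2 lay above Irx1 in each of the 3 control libraries, while Irx3 and Irx5 spread more widely. Astroglia-like cells, a single cluster of 562 cells led by the progenitor genes Dbx1 and Neurog1, had the highest means of the IrxB genes among named classes, with Irx5 at 300.9, 177.3 and 187.7 CPM, Irx3 at 225.1, 122.6 and 126.3 CPM and Irx6 at 43.3, 7.35 and 7.35 CPM. For Irx3 they overlapped with cerebellar nuclei-like cells, at 112.4, 114.8 and 126.0 CPM. For Irx6 the mean rested on control replicate 1.

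Irx4 was found in 2 of 31 E14.5 clusters above 10 CPM. Both were clusters that the marker lists left unnamed, and both held Irx4 among their 10 leading genes. Cluster 20, 1468 cells led by Foxp2, Irx4, Cdh18 and Nr4a2, had Irx4 at 64.6, 83.2 and 56.0 CPM. Cluster 11, 2098 cells led by C1ql4, Hs3st4 and Prph, had Irx4 at 51.2, 58.8 and 49.4 CPM. Cluster 11 also held the highest Irx1 (242 CPM ± 17.7) and Irx2 (299 ± 42.1) of any E14.5 cluster, with Irx3 at 149 ± 22.5 and Irx5 at 264 ± 36.1. Its 4 rostral markers (En1, En2, Pax5, Cnpy1) summed to 475.9 CPM and its 6 Hox markers to 27.8 CPM. Cluster 8, 251 cells led by Tfap2d, Tcf7l2 and Shox2 and also rostral by these sums (381.5 against 17.6 CPM), had the highest Irx5, at 266.2, 278.4 and 284.8 CPM, and the highest mean Irx3, at 142.7, 146.3 and 187.5 CPM, which did not differ from cluster 16 beyond the spread.

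Counted over the 31 E14.5 clusters, levels above 10 CPM were reached by Irx2 in 29, Irx1 in 28, Irx5 in 28, Irx3 in 21, Irx4 in 2 and Irx6 in 1. Irx2 was well above Irx1 in 2 unnamed Hox-positive clusters, at 141 and 123 CPM in clusters 5 and 12 with Irx1 at 31.3 and 24.9 CPM. At E18.5, over 29 clusters, the counts were 22 for Irx2, 23 for Irx1, 14 for Irx5, 5 for Irx3, 1 for Irx4 and 0 for Irx6. The single E18.5 cluster with Irx4 was cluster 25, led by Cck and Meis2, at 13.3, 14.2 and 7.46 CPM, where Irx3 was also at its highest for that age, at 34.2, 55.8 and 33.8 CPM.

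**Figure D2:**
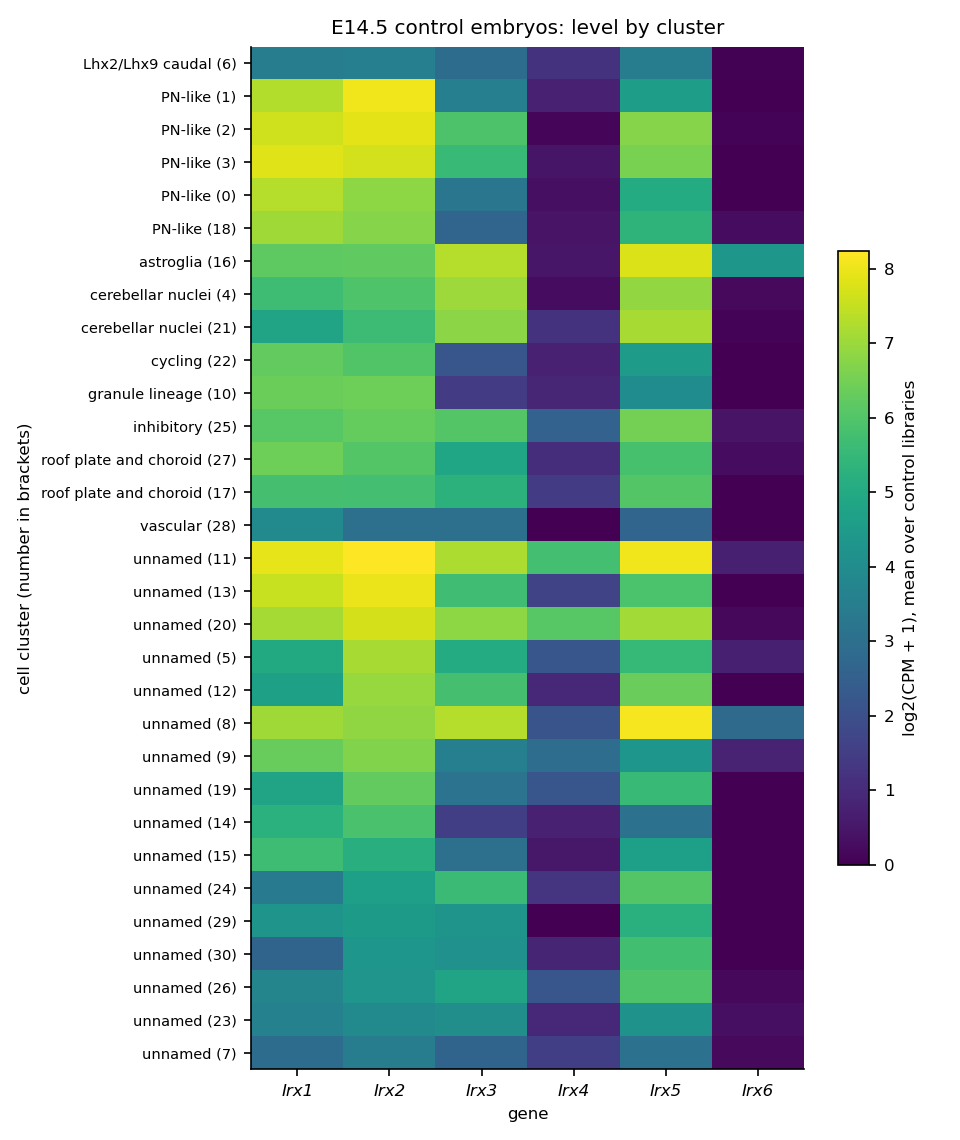
Mean level over control libraries, as log2(CPM + 1) (colour), of the 6 Irx genes (columns) in the 31 E14.5 clusters with enough cells (rows, class and cluster number). PN-like rows are bright for Irx1 and Irx2, cerebellar nuclei rows for Irx3 and Irx5, and Irx4 is bright in clusters 11 and 20 alone.

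Levels of Irx1 and Irx2 followed each other across E14.5 clusters, and so did those of Irx3 and Irx5. The measure of likeness was Pearson's r of log2(CPM + 1) over 32 clusters of pooled control cells, given as a description, since clusters share libraries and depth. For Irx1 the most alike gene was Irx2 (r = 0.915), followed by Ccdc85c (0.740), Sap30bp (0.738), Txnrd1 (0.734) and Zfp553 (0.733). For Irx3 it was Irx5 (r = 0.916), followed by Prag1 (0.761), Pou3f2 (0.749), Pou3f4 (0.705) and Thsd7a (0.691). For Irx5, Pou3f2 (0.816), Prag1 (0.793) and Pou3f4 (0.785) came next after Irx3, and Pou3f2 and Pou3f4 are neural POU-homeodomain factors. Between the clusters of the genome the values were lower, at 0.414 for Irx1 with Irx3, 0.603 for Irx1 with Irx5, 0.512 for Irx2 with Irx3 and 0.697 for Irx2 with Irx5. At E14.5 the most alike gene of each of these 4 members was thus its neighbour of the same genomic cluster. At E18.5 Irx1 and Irx2 were again most alike to each other (0.853). Irx3 was under the limit of 10 CPM at E18.5 and P5, and the gene most like Irx5 was Pou3f2 (0.809 and 0.885).

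The likeness of Irx2 to the Hox genes across clusters was higher at the later ages. Its r with the sum of the 6 Hox markers was 0.217 at E14.5, 0.599 at E18.5 over 31 clusters and 0.930 at P5 over 30 clusters, and that of Irx1 was 0.121, 0.461 and 0.815. At P5 most Hox-positive clusters were PN-like ones from a PN dissection, so these points share a tissue as well as libraries. The genes most like Irx2 at P5 were Neto1 (0.956), Chrm2 (0.941), Nxph4 (0.941), Hoxb3 (0.936) and Irx1 (0.934). Irx3 and Irx5 gave -0.00293 and 0.0114 with the Hox sum at E14.5, and 0.454 and 0.486 with the sum of the 4 rostral markers. Meis2, another TALE gene, gave 0.674 with Irx3 at E14.5, and 0.616, 0.641 and 0.787 with Irx5 at the 3 ages. Irx3os, the antisense RNA, had a median of 1.14 CPM over E14.5 clusters and gave 0.887 with Irx3, although reads of the pair may not be separable.

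At E18.5 the IrxA pair again led in PN-like cells. Irx2 was at 481.3, 503.0 and 470.6 CPM in the controls and Irx1 at 223.2, 196.9 and 183.2 CPM, while Irx5 was at 42.5, 41.3 and 21.9 CPM and Irx3 at 3.62, 4.38 and 1.39 CPM. Granule lineage cells of the same libraries had Irx2 at 15.9 ± 2.34 and Irx1 at 11.4 ± 1.43 CPM, and unipolar brush-like cells had Irx1 at 68.0 ± 10.3 above Irx2 at 34.7 ± 0.479 CPM. Astroglia-like cells had Irx5 at 73.0 ± 4.93 and Irx3 at 39.8 ± 9.65 CPM, the highest Irx3 of the named classes. At P5 the PN-like cells had Irx2 at 430.9 and 391.3 CPM, Irx1 at 151.8 and 159.1 CPM, Irx5 at 7.11 and 8.45 CPM and Irx3 at 0.232 and 0.107 CPM. The astroglia-like cells of the P5 PN had Irx5 at 58.3 and 79.2 CPM, Irx2 at 59.97 and 41.5 CPM and Irx3 at 36.0 and 38.1 CPM, and no UMI of Irx6. In 2 P5 oligodendrocyte lineage-like clusters with Pdgfra, a gene of oligodendrocyte precursors, among their leading genes, Irx1 was at 110.3 ± 1.78 and 93.9 ± 6.37 CPM (n = 2), against 36.8 ± 5.65 CPM over the whole lineage.

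Within PN-like cells at E14.5, all 4 expressed members had their highest mean in migrating neuron-2, by the states that the study's own marker lists set. Irx3 varied most along this order, from 5.51 CPM in progenitors and 5.92 CPM in intermediate progenitors to 22.9 ± 4.43 CPM in migrating neuron-1, 80.4, 62.3 and 68.2 CPM in migrating neuron-2 and 9.495, 26.9 and 6.57 CPM in differentiated neurons. Irx5 went from 40.0 and 25.2 CPM in the progenitor states to 61.2 ± 17.7, then to 143, 105 and 132 CPM in migrating neuron-2 and to 25.6 ± 11.2 CPM in differentiated neurons. Irx2 was at 103 ± 11.0 and 101 ± 10.9 CPM in the progenitor states, 161 ± 15.4 in migrating neuron-1, 270 ± 36.7 in migrating neuron-2 and 236 ± 17.2 in differentiated neurons. The last pair of Irx2 values did not differ beyond their spread. In control replicate 2 Irx2 was lower in migrating neuron-2, at 227.8 CPM, than in differentiated neurons, at 248.4 CPM, and the other controls went the other way. Irx1 varied least, from 133 ± 15.6 CPM in progenitors to 216 ± 18.7 in migrating neuron-2 and 158 ± 11.7 in differentiated neurons.

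The Irx3 and Irx5 peak was uneven inside migrating neuron-2. Sub-cluster 4, 298 cells led by Th, Lhx2, Lamp5, Maf and Irx3 itself, had Irx3 at 132.1, 129.9 and 151.0 CPM and Irx5 at 258.9, 229.2 and 268.5 CPM in the controls. Sub-cluster 1, 727 cells led by Gfra1, Klhl35 and Nrp1, had Irx3 at 58.3 ± 10.3 and Irx5 at 101.5 ± 0.592 CPM (n = 2). Lhx2 is a gene whose level the PN-like rule limits in an E14.5 cluster as a whole, so the leading genes of sub-cluster 4 go against that label. Sub-clusters 11 and 16, in migrating neuron-2 and differentiated neurons, had at least 10 cells per library in the replicate 2 pair alone. Sub-cluster 12, 326 cells led by Sst and Syt4, had the highest Irx2 of the differentiated neurons, 424.3 ± 140.6 CPM, with Irx3 at 4.31 ± 1.43 CPM.

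At E18.5 Irx3 and Irx5 were lower in the PN subtypes, summed over their named sub-clusters, than in sub-cluster 11 and migrating neurons. Sub-cluster 11, 221 cells led by Robo3 and Nhlh1 and left unnamed because its leading genes held markers of 2 states, had Irx3 at 24.4 ± 3.29 and Irx5 at 97.6 ± 34.3 CPM with Irx2 at 212.6 ± 17.9 CPM. Migrating neurons had Irx3 at 3.44, 8.62 and 4.12 CPM, Irx5 at 86.7, 79.5 and 68.5 CPM and Irx2 at 606.9, 574.1 and 469.0 CPM. Among the embryonic PN subtypes, ePN1 had Irx2 at 664.7, 659.0 and 640.2 CPM and Irx1 at 327.1, 256.2 and 270.4 CPM, ePN2 had Irx2 at 559.7 ± 43.9 and Irx1 at 197.7 ± 15.6 CPM, and ePN3 had Irx2 at 295.3, 283.3 and 285.8 CPM and Irx1 at 127.6, 106.9 and 111.3 CPM. Summed over their named sub-clusters, the 3 subtypes did not overlap for Irx2. Sub-clusters 2 and 5, nearest to the ePN1 and ePN3 lists, were left unnamed because their leading genes held markers of 2 lists. They held 92 and 156 control cells, with Irx2 at 447.7 ± 22.8 and 450.9 ± 12.6 CPM, between ePN3 and ePN1. The order of subtypes thus holds for named sub-clusters only. Within the subtypes sub-cluster 8, named ePN2, had Irx2 at 674.6, 727.2 and 599.6 CPM, which overlapped with sub-cluster 1, named ePN1, at 615.8, 598.8 and 620.5 CPM. Irx5 ran in the same order, at 30.2 ± 7.86 in ePN1, 23.2 ± 8.34 in ePN2 and 3.81 ± 1.42 CPM in ePN3, where the first pair did not differ beyond their spread. The ePN3 list is led by Hoxb5, Hoxc4 and Hoxa5. Only 1 control library had enough ePN4 cells, with Irx2 at 345.9 CPM.

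The P5 subtypes differed less. Irx2 ranged from 385.6 ± 18.51 CPM in PN4 and 388.4 ± 15.5 in PN6 over 414.7 ± 32.2 in PN3 and 419.8 ± 25.3 in PN1 to 472.0 ± 19.8 in PN2 and 472.5 ± 22.6 in PN5 (n = 2). Inside subtypes it spread about as widely. The sub-clusters of PN1 were at 381.0 ± 15.0 and 463.1 ± 25.9 CPM, and those of PN3 at 435.4 ± 33.9, 397.4 ± 25.3 and 306.0 ± 1.10 CPM. The order of the subtypes in Irx2 is thus not read as a difference between them. Irx1 was at 183.8 and 189.4 CPM in PN2, 181.5 and 189.5 in PN3, and 180.7 and 201.7 in PN5, above 142.6 and 149.8 in PN4, 136.2 and 132.1 in PN1, and 110.3 and 125.0 in PN6. These 2 groups of 3 subtypes did not overlap in Irx1. Irx5 was at 15.2 ± 1.38 CPM in PN5 and at 4.38 ± 0.124 and 3.61 ± 0.558 CPM in PN4 and PN6. Irx3 averaged at most 0.235 CPM in a subtype, with 0.470 CPM in 1 library of PN6 as its highest value.

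**Figure D3:**
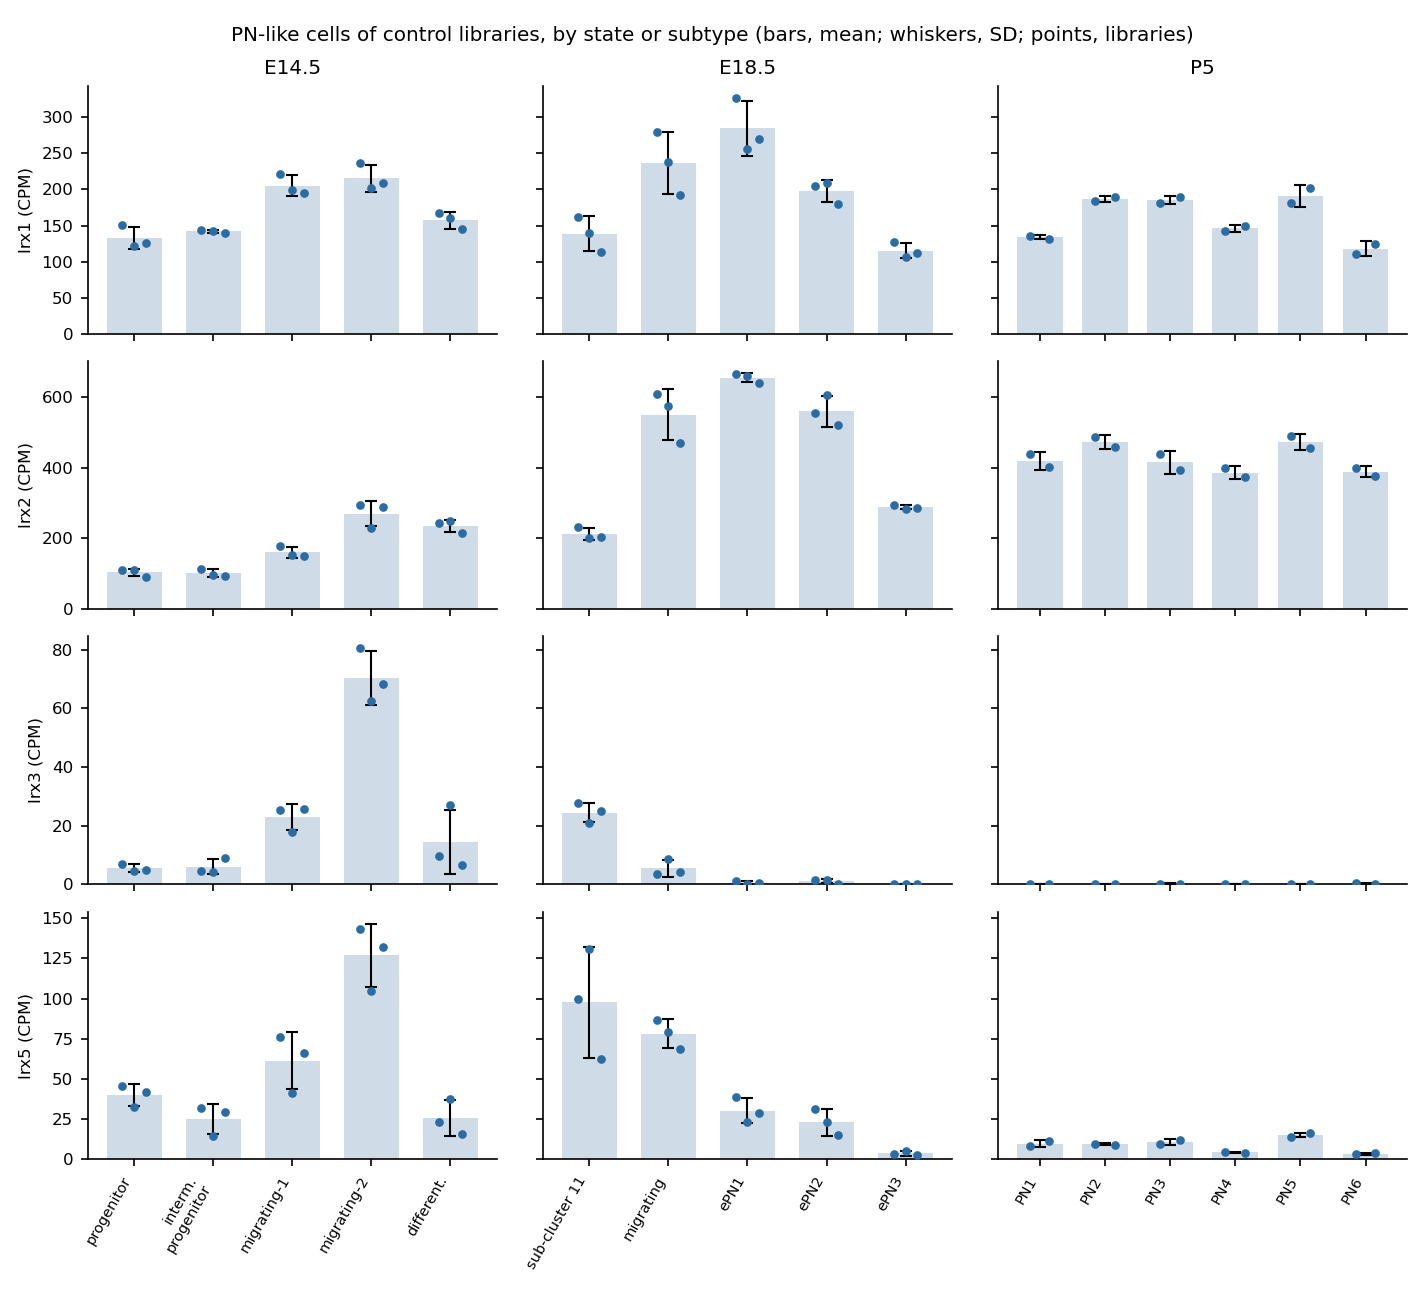
Level (y axis, CPM) of Irx1, Irx2, Irx3 and Irx5 in PN-like cells of control libraries by state or subtype (x axis), in columns for E14.5, E18.5 and P5, with bars for the mean, whiskers for the SD and points for libraries. Irx3 peaks in E14.5 migrating neuron-2 (62.3 to 80.4 CPM), and the highest mean of Irx2, summed over sub-clusters, is that of E18.5 ePN1 (640.2 to 664.7 CPM).

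The stage comparison was then made within PN-like cells alone, a choice made after the data were seen. There 59.6% of 13770 genes were called, and the members took different directions. Irx2 rose by 1.16 on the log2 scale from E14.5 to E18.5 (SE 0.08, adjusted p = 7.10e-06), Irx3 fell by 3.40 (SE 0.30, adjusted p = 2.18e-05), Irx5 fell by 0.87 (SE 0.21, adjusted p = 0.00500), and Irx1 was not called (0.09, SE 0.09, adjusted p = 0.414). The control values of Irx2 did not overlap between the ages, nor did those of Irx3 and Irx5. In migrating neurons, E14.5 migrating neuron-2 against E18.5, 43.9% of 10864 genes were called, and the values were 0.91 for Irx2 (SE 0.11, adjusted p = 2.43e-05), -0.81 for Irx5 (SE 0.12, adjusted p = 0.000112) and 0.01 for Irx1 (adjusted p = 0.937). Irx3 was there at 80.4, 62.3 and 68.2 CPM at E14.5 and at 3.44, 8.62 and 4.12 CPM at E18.5, on 5, 14 and 8 UMIs, so it passed the filter only through E14.5 and its test is not given. The calls were also made with another normalization, with DESeq2 and without each library in turn, with Irx5 nearest to 0, at -0.59, in PN-like cells without E18.5 control replicate 3. The E14.5 levels of Irx5 rested in part on sub-cluster 4. Without it, in an alternative added after the data were seen, 59.5% of genes were called in PN-like cells and 42.5% in migrating neurons. Irx5 then gave -0.60 (SE 0.21, adjusted p = 0.0332) in PN-like cells and -0.41 (SE 0.13, adjusted p = 0.0189) in migrating neurons, where it was at 111.3, 78.3 and 99.98 CPM at E14.5 and overlapped with the 68.5 to 86.7 CPM of E18.5. Irx2 gave 0.86 in the same migrating neurons and was called. The Irx2 value thus differed in sign between all sorted cells and PN-like cells, while the PN-like share of control cells was 15.3% to 26.8% at E14.5 and 7.37% to 17.0% at E18.5. The PN-like states at the 2 ages come from different marker lists, and their mix was not matched. The E18.5 migrating neurons leave out the unnamed sub-cluster 11, which shares Robo3 and Nhlh1 among its leading genes with E14.5 sub-cluster 1. Irx2 was at 253.6 ± 14.3 CPM in E14.5 sub-cluster 1 (n = 2) and at 212.6 ± 17.9 CPM in E18.5 sub-cluster 11. Irx5 was at 101.5 ± 0.592 and 97.6 ± 34.3 CPM. Neither the Irx2 rise nor the Irx5 fall was seen between these sub-clusters, which were not tested.

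**Figure D4:**
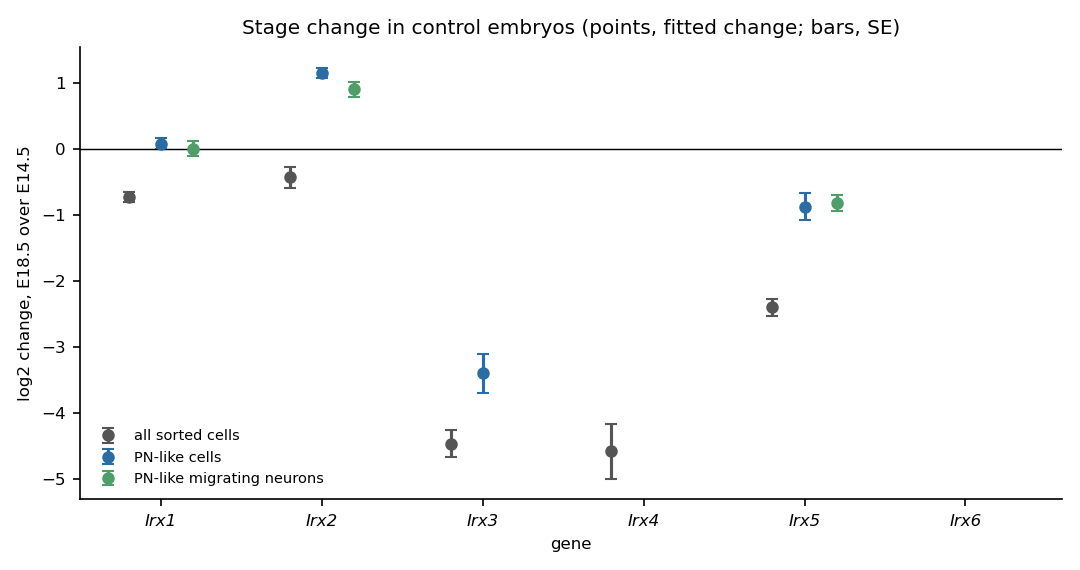
Fitted log2 change from E14.5 to E18.5 in controls (y axis) of the Irx genes that passed the filter at both ages (x axis), over all sorted cells, PN-like cells and PN-like migrating neurons, with bars for the SE. Irx2 lies at 1.16 in PN-like cells and at -0.43 over all cells, and Irx3 lies at -4.47 over all cells and at -3.40 in PN-like cells. Irx6, and Irx3 in migrating neurons, passed only through E14.5 and are not drawn.

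Shares of cells with at least 1 UMI of a member were compared after each cell was thinned to 5000 UMIs. Of 3343 E14.5 control PN-like cells (18 shallower cells left out), 57.6% held Irx2, 54.8% Irx1, 19.9% Irx5 and 10.2% Irx3, and without thinning the shares were 86.6%, 86.6%, 40.0% and 23.3%. In 1699 E18.5 cells (25 left out) they were 84.6% for Irx2, 59.3% for Irx1, 13.2% for Irx5 and 1.35% for Irx3, or 96.8%, 90.2%, 32.1% and 3.31% unthinned. In 8115 P5 cells (102 left out) they were 85.5%, 52.7%, 4.07% and 0.160%, or 99.0%, 94.2%, 18.04% and 0.548% unthinned. As a background, 790 P5 microglia-like cells, which should lack these genes, gave 10.5% for Irx2, 3.54% for Irx1, 0.380% for Irx5 and 0.253% for Irx3 at the same thinning (median depth 11117.5 UMIs against 28604 in PN-like cells). The P5 Irx3 share of PN-like cells was under that background and is not read as expression. E14.5 cerebellar nuclei-like cells gave 36.5% for Irx3 and 37.7% for Irx5 against 13.0% for Irx1 and 17.5% for Irx2, and Lhx2 and Lhx9 caudal neurons gave 2.44% to 3.29% for these 4 genes at a median depth of 21879 UMIs, above the 17838 UMIs of PN-like cells.

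Irx3 and Irx5 were met in the same cells more often than the product of their shares. In E14.5 PN-like cells 4.94% held both Irx3 and Irx5 where the product was 2.04%, in cerebellar nuclei-like cells 21.03% against 13.8%, and in inhibitory neuron-like cells 13.1% against 4.01%. For Irx1 and Irx2 the values in PN-like cells were 35.0% against 31.5% at E14.5, 51.7% against 50.1% at E18.5 and 45.6% against 45.1% at P5, and in inhibitory neuron-like cells 11.4% against 4.08% at E14.5. Irx1 and Irx3 in E14.5 PN-like cells gave 6.07% against 5.603%. These values are descriptions over cells of pooled libraries.

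The study's genetic question is whether partial loss of Atoh1 function changes these cells, and over all sorted cells no member was called in either age. At E14.5, 0% of 17604 genes were called by edgeR, 2090 having an unadjusted p under 0.05. DESeq2 called 523, and edgeR with littermates as blocks called 2415. Irx2 gave a log2 change of -0.19 in Atoh1S193A/- against control (SE 0.07, adjusted p = 0.408), with 105.1, 109.5 and 96.4 CPM in mutants, and Irx1 gave -0.17 (SE 0.10, adjusted p = 0.539), with 90.3, 75.3 and 86.0 CPM. Each of the 3 mutants lay below its littermate for both genes. Irx3 (-0.13), Irx4 (-0.22), Irx5 (-0.03) and Irx6 (-0.14) had SEs of 0.20 to 0.79. At E18.5, 0% of 16907 genes were called, with 342 at an unadjusted p under 0.05, 23 called by DESeq2 and 29 with littermates as blocks, and Irx1 gave -0.17, Irx2 -0.20, Irx3 0.32, Irx4 0.73 and Irx5 -0.09, with adjusted p = 0.999977 for each. Irx6 was not tested there. The change of the genotype difference between ages was called in 0% of 18158 genes (1339 at an unadjusted p under 0.05, 82 by DESeq2, 1722 with littermates as blocks), and the members' values lay between -0.04 and 0.97. In the blocked fit Irx2 at E14.5 had an adjusted p of 0.0291 at the same size of -0.19, and was not among the 2415 called genes because of the limit of 0.25 on the size.

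Within classes and states of cells, 47 tests of members in 13 fits at E14.5 and 25 in 9 fits at E18.5 gave no call, where 0.647% and 0.0559% of all tests were called. Cells of unnamed clusters entered no class fit. They were 33.2% to 50.8% of an E14.5 library and 39.4% to 45.5% of an E18.5 library, and included E14.5 clusters 11 and 20 with Irx4. At an unadjusted p under 0.05 there were 4 and 2 member tests, and the share of all genes at that limit is not given here. Irx3 in cycling cells is 1 of the 4 and of the 47. It passed the filter only through the mutants and is not read as a test. In E14.5 PN-like cells 8.13% of 10089 genes were called. These 820 calls became 208 without mutant replicate 3, 276 without control replicate 3, 341 without control replicate 1, 419 without mutant replicate 1 and 541 without control replicate 2, and they became 1401 with DESeq2 and 2618 with littermates as blocks. Cell Ranger version was partly confounded with genotype at E14.5, since 2 of 3 controls carried 3.1.0 and all mutants 5.0.1, and between the 5.0.1 libraries, with 1 control, there were 286 calls. Irx1 gave -0.22 (SE 0.13, adjusted p = 0.308), with 169.7, 127.6 and 169.2 CPM in mutants. Irx2 gave -0.20 (SE 0.09, adjusted p = 0.225), with 196.9, 163.9 and 181.7 CPM in mutants against 192.2 to 209.9 CPM in controls, and each mutant lay below its littermate. In PN-like progenitors of the same age Irx2 lay the other way, at 133.3, 126.7 and 127.0 CPM in mutants against 110.0, 109.6 and 90.7 CPM in controls (log2 difference 0.28, SE 0.11, adjusted p = 0.999804 by edgeR), without overlap. Inside this state the groups overlapped in sub-cluster 8, at 135.2, 131.2 and 127.0 CPM in mutants against 101.6, 135.3 and 103.0 CPM in controls. They did not overlap in sub-cluster 10, at 138.3, 123.7 and 148.6 CPM against 122.9, 107.9 and 93.2 CPM. In E18.5 PN-like cells Irx2 was at 487.6, 485.1 and 444.9 CPM in mutants, against 470.6 to 503.0 CPM in controls, and its log2 difference was -0.05 (SE 0.06). Irx5 was there at 35.6, 28.5 and 15.8 CPM in mutants against 42.5, 41.3 and 21.9 CPM in controls (-0.39, SE 0.31, adjusted p = 0.999962 by edgeR), and Irx1 at 207.8, 176.7 and 167.1 CPM in mutants (-0.14, SE 0.09, adjusted p = 0.999962). For both genes each mutant lay below its littermate, and the groups overlapped. In ePN1, 1 of the E18.5 states, Irx1 lay the other way, at 339.6, 289.9 and 346.5 CPM in mutants against 327.1, 256.2 and 270.4 CPM in littermates (0.24, SE 0.12, adjusted p = 0.789 by edgeR), with overlap. Sub-cluster 1 of ePN1 averaged 266.7 CPM in controls and 266.5 CPM in mutants (n = 2), and sub-cluster 13 averaged 313.1 and 367.2 CPM. Sub-cluster 13 held 98 of 265 control and 59 of 107 mutant ePN1 cells, and the part of this share in the Irx1 value was not tested. In the E14.5 granule lineage Irx1 was at 101.1, 109.6 and 92.7 CPM in mutants against 84.0, 82.4 and 80.1 CPM in controls (0.28, SE 0.12, adjusted p = 0.999707 by edgeR), without overlap. The states of PN-like cells shifted with genotype: progenitors were 5.596% to 11.9% of control and 27.2% to 31.2% of mutant PN-like cells at E14.5, and ePN1 cells were 14.2% to 16.4% and 6.67% to 7.25% at E18.5. Roof plate-like cells were 3.52% to 4.71% of all control and 8.03% to 10.7% of all mutant cells at E14.5. The part of these shares in the values of the members was not tested.

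Irx5 in E18.5 migrating neurons came nearest to a call. It was at 86.7, 79.5 and 68.5 CPM in controls and at 51.8, 52.7 and 49.0 CPM in Atoh1S193A/- embryos, and the groups did not overlap. The log2 difference was -0.62 (SE 0.13, adjusted p = 0.152 by edgeR), where 0.0413% of 9689 genes were called. With littermates as blocks the value was -0.63 (adjusted p = 0.0190, with 0.547% called), and without the filter on low counts -0.63 (adjusted p = 0.00746, with 0.354% of 17241 genes called). DESeq2 gave -0.62 (adjusted p = 0.710). The migrating neurons held 2 sub-clusters. In sub-cluster 9, led by Id4, Nrgn and Robo3, Irx5 was at 103.4, 115.0 and 105.0 CPM in controls and at 74.4, 47.4 and 86.5 CPM in mutants, and in sub-cluster 7, led by Cadps2, it was at 71.7, 57.6 and 31.9 CPM in controls and at 37.6, 54.4 and 36.8 CPM in mutants, where the replicate 3 mutant lay above its littermate and the groups overlapped. The 47.4 CPM of mutant replicate 2 in sub-cluster 9 rested on 14 cells and 9 UMIs. In the unnamed sub-cluster 11, led by Robo3 and Nhlh1, Irx5 was at 99.9, 130.7 and 62.1 CPM in controls and at 161.5, 93.9 and 55.5 CPM in mutants, and the groups overlapped. Sub-cluster 9, with the higher Irx5, was 40.4% to 50% of control and 25.9% to 38.1% of mutant migrating neurons, and the part of this share in the difference was not tested.

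In the E14.5 cycling class Irx5 lay in the other direction. This class is cluster 22 alone, 1840 cells with no Hox marker above the mean of clusters. Cycling markers were also high in PN-like cluster 18 and roof plate-like cluster 27, outside this class. Irx5 gave 0.09 (SE 0.24) in PN-like progenitors and 0.34 (SE 0.28) in roof plate-like cells, with overlap and no call in either. In cluster 22 Irx5 was at 24.9, 23.2 and 18.7 CPM in controls and at 39.2, 34.3 and 28.7 CPM in mutants, without overlap. The log2 difference was 0.61 (SE 0.16, adjusted p = 0.873 by edgeR). With littermates as blocks the value was 0.61 with an adjusted p of 0.0184, in a fit that called 1.22% of 10274 genes. Irx3 was at 5.29, 3.13 and 2.32 CPM in controls and 6.37, 9.79 and 6.51 CPM in mutants, without overlap, but it passed the filter of a UMI in 10% of cells only through the mutants, and no test of it is given.

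Irx3 in E14.5 PN-like cells depended on 1 library. The controls were at 27.7, 31.8 and 25.2 CPM and the mutants at 16.3, 51.3 and 16.1 CPM, so that replicates 1 and 3 lay below their littermates and replicate 2 above. Over all 6 libraries the log2 difference was -0.07 (SE 0.43, adjusted p = 0.944) and the gene was not called. Without mutant replicate 2 it was -0.83 (SE 0.13, adjusted p = 0.0167), where 6.93% of genes were called. In differentiated neurons that library had Irx3 at 69.1 CPM against 6.00 and 8.58 CPM in the other mutants, and Irx5 at 88.8 CPM against 23.7 and 20.2 CPM. Its Irx1 level there was the lowest, 101.6 CPM against 166 and 158 CPM. The library's cerebellar nuclei markers summed to 1561 CPM over all cells and those of its littermate control to 1502 CPM, against 719.6 to 1070 CPM in the other E14.5 libraries, and their part in the Irx3 value was not tested. Sub-cluster 4, with the highest Irx3 of migrating neuron-2 and with Lhx2 among its leading genes, held 102 cells of mutant replicate 2, 10.2% of its PN-like cells, against 22 and 16 cells (1.66% and 0.953%) of the other mutants and 37, 56 and 65 cells (4.26%, 5.76% and 4.28%) of the controls. Its Irx3 level in that library was 178.8 CPM. Outside sub-cluster 4, PN-like cells had Irx3 at 22.6, 25.8 and 18.99 CPM in controls and at 14.53, 36.5 and 14.78 CPM in mutants, so that replicate 2 still lay above its littermate.

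**Figure D5:**
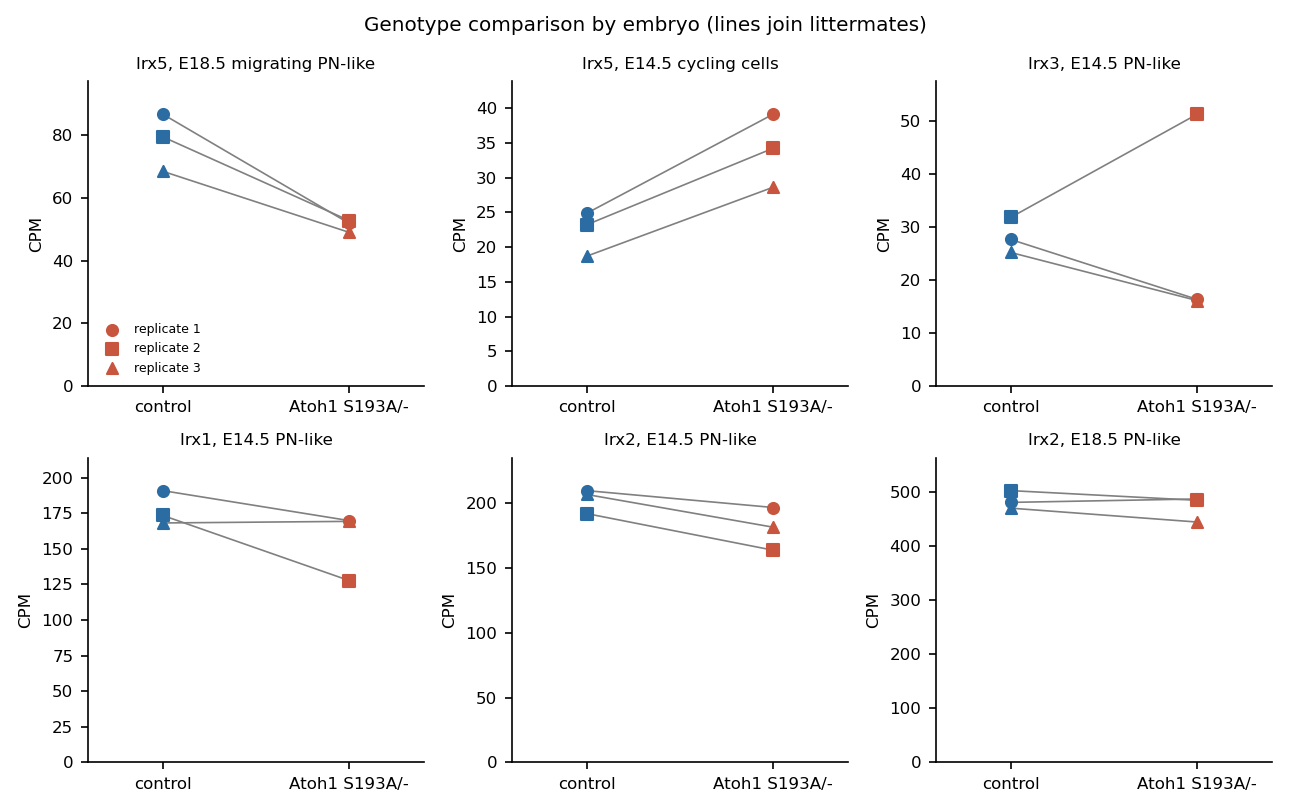
Level (y axis, CPM) of Irx5, Irx3, Irx1 and Irx2 in the named cells of control and Atoh1S193A/- embryos (x axis), with lines joining littermates and a symbol for each replicate number. Irx5 does not overlap between genotypes in E18.5 migrating neurons (68.5 to 86.7 against 49.0 to 52.7 CPM), and Irx3 in E14.5 PN-like cells is split by replicate 2 at 51.3 CPM.

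The fixed gene lists around the family gave few calls by genotype. Over all sorted cells none of the 7 lists had a called gene at either age. In E14.5 PN-like cells, Wnt1, a signal of the rhombic lip, rose by 2.01 on the log2 scale (SE 0.41, adjusted p = 0.0278) and Hoxc4 fell by 0.50 (SE 0.12, adjusted p = 0.0472), as 1 of 2 tested isthmic and rostral genes and 1 of 11 tested Hox genes, beside the 8.13% of all genes called in that fit. The larger progenitor share of mutant PN-like cells given above moved with genotype too, and its part in the Wnt1 value was not tested. None of 11 other TALE genes was called there (median 0.03), and no listed gene was called in E18.5 PN-like cells.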

How the data were processed

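UMI counts per gene and cell were deposited by the authors as 10x matrices on mm10. The submitters' notes name Cell Ranger 5.0.1, and the file headers give 3.1.0 for 2 libraries and 5.0.1 for 12. Cells with at least 1000 genes and under 5% mitochondrial UMIs were kept, since the 1% limit stated by the study would leave 1034 of 150188 barcodes. The top 7.5% by Scrublet score per library, 6501 cells, were removed as doublets in place of DoubletFinder. Cells were clustered per age with scanpy 1.11.5 (2000 variable genes, 30 components, 15 neighbours, Leiden resolution 1), without the Irx genes and the gene lists. Markers outside these lists stayed in, so the clusters were not independent of the markers that named them. Clusters were called by the marker lists, and limits on naming were set after the data were seen. State and subtype lists are the study's own on these libraries, so their agreement with the cells is not independent.

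UMI sums per library were tested with edgeR 4.0.16 (TMM, quasi-likelihood, Benjamini-Hochberg adjustment), over genes with at least 10 UMIs in 3 libraries for all cells, and within classes over genes with a UMI in 10% of the cells of either genotype. DESeq2 1.42.0 was an alternative, and the others were no filter, a 10% mitochondrial limit, the littermate block, RLE scaling, each library left out and other thinning depths. Only the genotype fits over all cells and over PN-like cells were run on simulated data, and the stage fits and the other class fits were not. Shares of cells were thinned to 5000 UMIs. Same-number embryos deviated together (r = 0.430, 0.617 and 0.570 at E14.5, 0.440, 0.403 and 0.719 at E18.5) and the protocol in the labels gives each mutant a littermate control, so the same number was taken to mark a litter. Named genes are the 6 members, the 5 genes most alike to a member with at least 10 CPM, and at most 3 called genes per list. The members and lists were chosen with earlier results of these data known. Intervals of counting error were not computed for sums. The P5 libraries are pools of pups, so their spread is between pools.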

Additional observations from a re-analysis of the deposited data

How the results depend on the processing

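For genotype at E14.5 over all cells, 0 genes became 523 with DESeq2, 1 without the filter, 6 with a 10% mitochondrial limit, 2415 with the littermate block and 0 to 1 without each library, the 1 without control replicate 3. At E18.5, 0 became 23 with DESeq2 and 29 with the littermate block, and for the change of the genotype difference with age 0 became 82 and 1722. For age, 7839 became 5045 between Cell Ranger 5.0.1 libraries, with 1 E14.5 control library assumed to vary like the others, and 5339 in the mutants. In other cells with other genes tested, 8208 of 13770 genes were called in PN-like cells and 4774 of 10864 in PN-like migrating neurons, against 7839 of 17254. The last 3 alternatives were added after the data were seen. Within classes, 0 member calls at E14.5 became 1 with the littermate block (Irx5 in cycling cells) and 0 to 1 without each library (1, Irx3 in PN-like cells, without mutant replicate 2), and 0 at E18.5 became 1 without the filter and 1 with the littermate block (Irx5 in migrating neurons). The share of E14.5 PN-like cells with Irx2 was 57.6% at 5000 UMIs, 40.9% at 3000 and 86.6% without thinning, and that with both Irx1 and Irx2 was 35.0% and 78.0% without thinning. Irx2, not called over all cells (-0.43), rose in PN-like migrating neurons (0.91), where Irx5 went from -0.81 to -0.41 without E14.5 sub-cluster 4, and Irx1 in these neurons, not called, moved around 0, from -0.09 to 0.14 without each library. Irx4 and Irx6 rest on few UMIs at E18.5, which limits what their changes can show. The cause of these differences was not tested.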
